A study of Mus musculus with 10 samples.

Results

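A set of 10 genes of salivary duct ion transport and of ionocytes was followed in mouse submandibular glands after the duct had been tied. They are the epithelial sodium channel subunits Scnn1a, Scnn1b and Scnn1g, the chloride channel Cftr, the apical exchangers Slc26a6 and Slc9a3, the transcription factors Foxi1 and Ascl3, the potassium channel Kcnj1 and the iodide transporter Slc5a5. They were chosen by name, and all 10 were found among the 55291 genes of the table. RNA came from 5 ligated glands, whose main duct on the right side had been closed with sutures, and from 5 sham glands, which had been dissected free through a skin incision without a ligature. Both groups were C57BL/6J mice of 8 weeks labelled female, and glands were taken at day 7. Each library is whole-gland RNA, so fewer duct cells and less RNA per duct cell cannot be told apart.

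Acinar cells release a sodium-rich primary saliva, and the ducts then take sodium and chloride back and add potassium and bicarbonate. Sodium enters duct cells through the epithelial sodium channel (ENaC), built of an alpha (Scnn1a), a beta (Scnn1b) and a gamma subunit (Scnn1g), while Cftr carries chloride. Ionocytes are rare epithelial cells rich in ion channels. Foxi1 is known as their main transcription factor in airway, kidney and inner ear, and Ascl3, a basic helix-loop-helix factor, marks a subset of salivary duct cells.

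The regions just upstream of 4 of these genes are shown so that Scnn1g, the 1 gene called, can be read beside Scnn1b, and the ionocyte regulator Foxi1 beside Ascl3. Each is the 250 bases before the RefSeq gene start on GRCm38.p6, written 5′ to 3′ on the strand of the gene. Capitals mark matches to the GC box letters GGGCGG or to the TATA box letters TATAAA, on either strand.
Scnn1g, chr7:121734229-121734478, plus strand: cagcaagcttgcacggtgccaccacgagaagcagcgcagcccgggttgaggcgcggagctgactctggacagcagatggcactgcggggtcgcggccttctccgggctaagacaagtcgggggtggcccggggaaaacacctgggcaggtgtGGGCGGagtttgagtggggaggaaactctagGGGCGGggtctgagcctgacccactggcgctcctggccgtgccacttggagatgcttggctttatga
Scnn1b, chr7:121864788-121865037, plus strand: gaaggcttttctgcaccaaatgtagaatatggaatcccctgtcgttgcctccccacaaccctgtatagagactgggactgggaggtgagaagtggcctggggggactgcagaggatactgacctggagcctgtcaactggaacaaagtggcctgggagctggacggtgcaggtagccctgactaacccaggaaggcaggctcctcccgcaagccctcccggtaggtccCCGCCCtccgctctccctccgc
Foxi1, chr11:34208090-34208339, minus strand: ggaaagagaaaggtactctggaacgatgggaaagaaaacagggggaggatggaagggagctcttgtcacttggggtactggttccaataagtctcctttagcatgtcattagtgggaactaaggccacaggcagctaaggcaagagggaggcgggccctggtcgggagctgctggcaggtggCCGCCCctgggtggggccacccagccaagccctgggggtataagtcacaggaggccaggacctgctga
Ascl3, chr7:109731733-109731982, minus strand: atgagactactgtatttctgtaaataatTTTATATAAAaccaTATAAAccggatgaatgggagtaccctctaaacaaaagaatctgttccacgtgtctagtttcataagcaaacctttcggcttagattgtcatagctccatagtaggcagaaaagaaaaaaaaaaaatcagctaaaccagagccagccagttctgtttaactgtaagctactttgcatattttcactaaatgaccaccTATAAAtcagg
Scnn1g and Scnn1b lie on the same chromosome in the same orientation, with 96562 bases between them. Whether other genes lie in that stretch was not examined. Of the 9 genes with a RefSeq window (Scnn1a had none), 7 held GGGCGG, against 32.7% of 32851 such windows in the whole genome. TATAAA was found in 1 of the 9, Ascl3, with 4 matches of which a pair overlap, against 12.4% of all windows. The forkhead core TGTTTAC, on either strand, was in 0 of the 9 and in 3.17% of all windows, and these matches describe letters only.

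The libraries held between 12105738 and 17305592 reads assigned to genes, worked out from the deposited values. Values are FPKM, read numbers scaled to gene length and to the library's total, which allows levels of different genes to be set side by side. In the 9 genes other than Kcnj1 they rested on 50 to 2317 reads per ligated library and 86 to 1999 per sham library. Libraries stood apart within both groups. Parotid transcripts were abundant in ligated 2, 3 and 5 and sham 1, where the summed FPKM of 5 parotid genes was 18234 to 43852, against 11.5 to 978 in the other libraries. Lymph node B and T cell transcripts were abundant in ligated 1, 2 and 3 and sham 1, with a sum over 5 genes of 115 to 171 FPKM, against 0.189 to 3.72 FPKM elsewhere. The labels give the sex as female, yet each of 4 Y-linked genes reached at least 0.770 FPKM in all libraries, and Xist at most 0.0267 FPKM. Of 6 epithelial markers listed for ducts (Krt7, Krt8, Krt18, Krt19, Epcam and Cdh1), 5 were called higher in ligated glands and 0 lower. Of all genes tested, 17.1% were called higher and 1.16% lower. The summed level of the 6 was 792 to 3465 FPKM in ligated glands, against 544 to 920 FPKM in sham glands. In contrast, 4 of 5 markers of granular convoluted tubule ducts were lower and 0 higher. Their sum was 1450 to 13334 FPKM in ligated glands, against 10347 to 22783 FPKM in sham glands. Markers of seromucous acini were lower in 6 of 6, whereas all 4 macrophage, all 4 fibroblast, all 4 adipocyte and all 4 skeletal muscle markers were higher. The part of these cell and tissue differences in the results was not tested.

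Gene-wise comparisons were made on the log2(FPKM + 1) scale with limma over 11856 genes that reached 1 FPKM in at least 5 of the 10 libraries, and calls needed both a Benjamini-Hochberg adjusted p below 0.05 and a change of 1 or more on the log2 scale in either direction. Of the 10 genes, 9 passed this filter. Of these, 1 was lower in ligated glands, Scnn1g, and 0 were higher. Among all genes tested, 1.16% were called lower and 17.1% higher, 18.3% in all. At the adjusted p alone, 1 gene was higher (Cftr) and 1 lower (Scnn1g), against 56.8% higher and 3.35% lower of all genes (60.1% in either direction). The groups overlapped in each of the 9 genes, so 0 of 9 were apart, compared with 31.3% of all genes (30.2% higher, 1.12% lower). Under other scalings of the libraries, Scnn1g was again lower after median-ratio scaling, where 7.09% of all genes were higher and 3.97% lower, and Scnn1g and Slc26a6 were lower after quantile normalization (5.81% higher, 4.29% lower) and with voom on recovered reads (10.8% higher, 4.59% lower). With every library brought to 1 common FPKM total, Cftr was the 1 gene called, higher, where 46.1% of all genes were higher and 0.548% lower. The median log2 fold change of the 9 was -0.10, that of all genes 0.53.

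**Figure D1:**
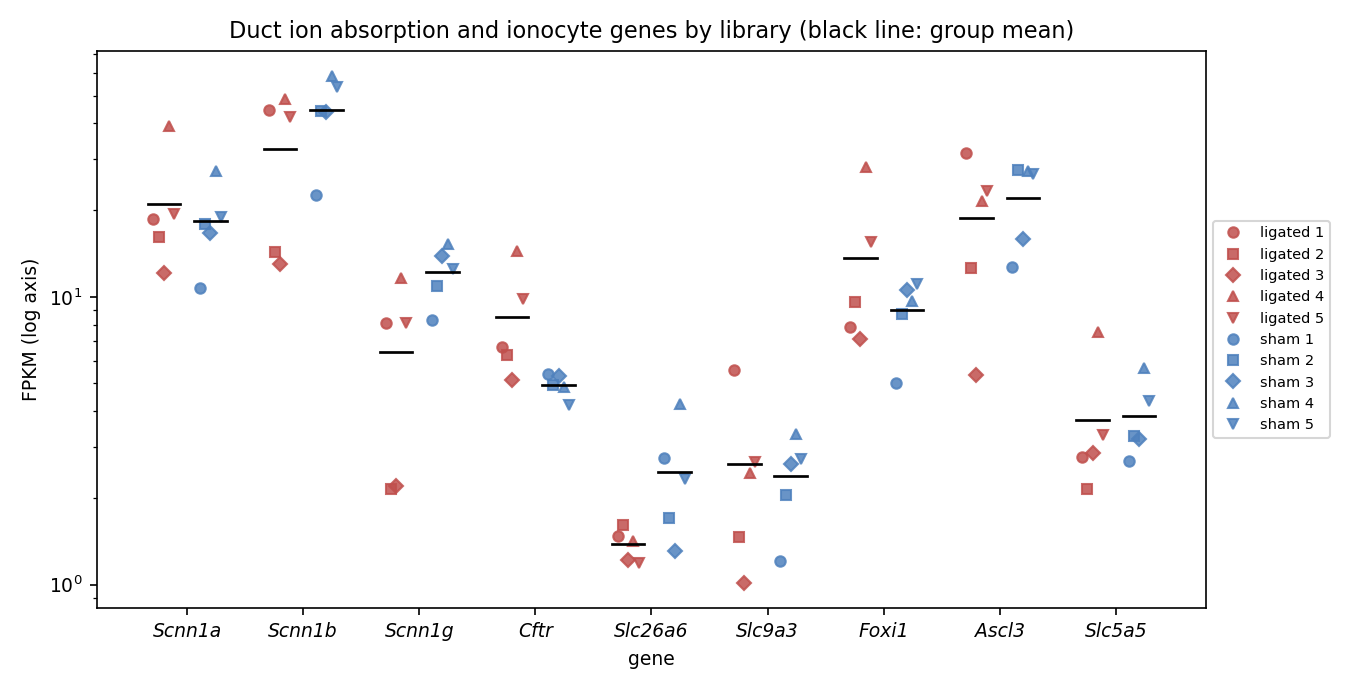
FPKM (log axis) of 9 genes in each of the 5 ligated (red) and 5 sham (blue) libraries, with the group means as black lines; Kcnj1 is left out because it was at 0 in 9 libraries. Scnn1b and Scnn1g were low in ligated 2 and 3, Foxi1 and Cftr were highest in ligated 4, and the groups overlapped in every gene drawn.

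Of the 3 ENaC subunits, Scnn1g passed the test and Scnn1a and Scnn1b did not, and the differences between their fold changes were not tested. Scnn1g, the gamma subunit, stood at 8.13, 2.15, 2.20, 11.6 and 8.10 FPKM in ligated glands 1 to 5, against 8.30, 10.9, 13.8, 15.2 and 12.5 FPKM in sham glands 1 to 5. Ligated 2 and 3 were far below the rest, with 83 and 88 reads, and ligated 1, 4 and 5 lay from just below the lowest sham gland to within the sham range. Scnn1g fell by 1.02 ± 0.39 on the log2 scale (SE; limma adjusted p = 0.0411), with means of 6.44 ± 4.15 FPKM in ligated and 12.1 ± 2.68 FPKM in sham glands (SD, n = 5 each). The call rested on most of the libraries. It was lost without ligated 2 or 3 or without sham 2, 3, 4 or 5 (limma adjusted p 0.0677 to 0.0906). Without the 4 libraries with parotid transcripts Scnn1g was at -0.39 (adjusted p = 0.179), and leaving out those rich in lymph node transcripts also at -0.39 (adjusted p = 0.129). Both subsets left 2 ligated and 4 sham libraries and leave out ligated 2 and 3.

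Scnn1b, the beta subunit, was the most abundant of the 10 genes by mean in both groups. It stood at 44.6, 14.3, 13.0, 48.7 and 42.2 FPKM in ligated glands 1 to 5, against 22.5, 44.1, 43.9, 58.4 and 53.7 FPKM in sham glands 1 to 5. Again ligated 2 and 3 were low, and the other 3 ligated glands lay within the sham range. The difference of -0.58 ± 0.41 (SE) did not pass the test (limma adjusted p = 0.233), with a 95% interval of -1.48 to 0.33.

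Scnn1a, the alpha subunit, stood at 18.7, 16.2, 12.1, 39.1 and 19.3 FPKM in ligated glands 1 to 5, against 10.7, 17.8, 16.6, 27.4 and 18.9 FPKM in sham glands 1 to 5. The 2 groups covered much the same range apart from ligated 4. The log2 difference was 0.14 ± 0.30 (SE; limma adjusted p = 0.681), with an interval of -0.51 to 0.80. Its sign was negative after median-ratio scaling of the libraries (-0.48).

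Ratios between subunits within a library do not change when all its values are multiplied by 1 factor, though quantile normalization can change them. They were computed after the values had been seen, so they are described without a test. Gamma over alpha was 0.435, 0.133, 0.181, 0.297 and 0.419 in ligated glands 1 to 5, against 0.774, 0.613, 0.833, 0.556 and 0.66 in sham glands 1 to 5. In this ratio every ligated gland lay below every sham gland. Gamma over beta was 0.182, 0.150, 0.168, 0.239 and 0.192 in ligated glands 1 to 5, against 0.369, 0.248, 0.315, 0.260 and 0.232 in sham glands 1 to 5. Here the groups overlapped, with ligated 4 above sham 5. Scnn1g made up 9.86% ± 2.39 of the summed FPKM of the 3 subunits in ligated and 16.7% ± 2.46 in sham glands (SD, n = 5 each), with ranges of 6.59% to 11.7% in ligated and 14.6% to 19.99% in sham glands. Leaving out the libraries with parotid transcripts, the shares were 11.4% and 11.7% in the 2 ligated glands left and 14.6% to 18.6% in sham glands. Beta over alpha ran from 0.884 to 2.39 in ligated glands and 2.10 to 2.85 in sham glands. These groups overlapped too, since ligated 1 and 5 reached the sham range and ligated 2, 3 and 4 did not.

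**Figure D2:**
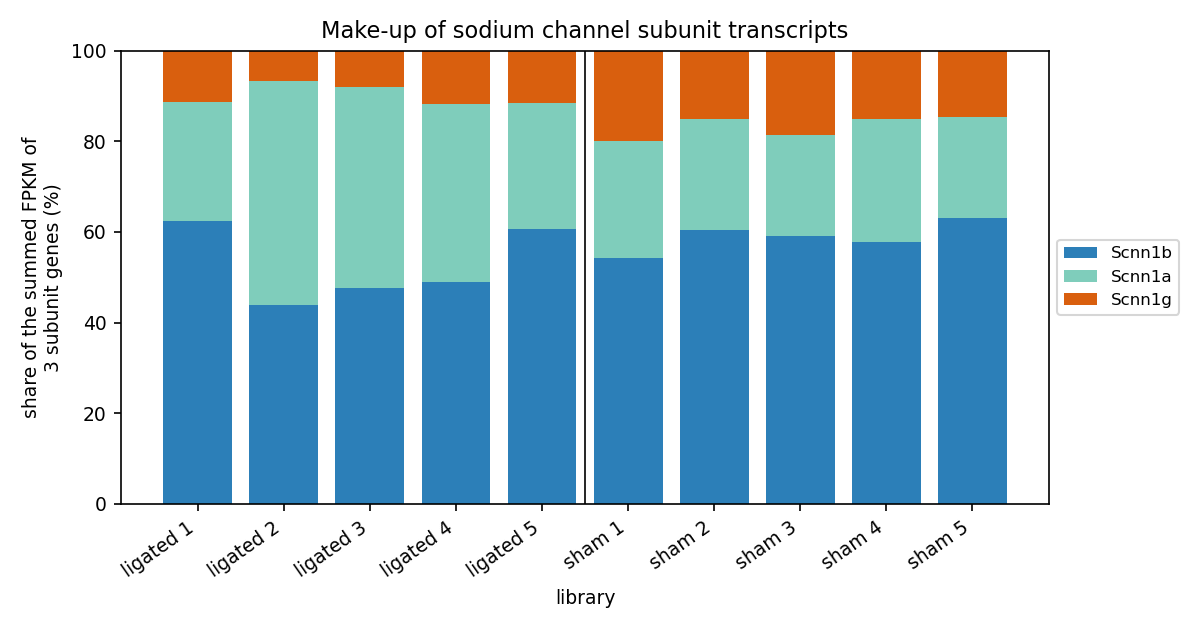
Share (%) of Scnn1b (blue), Scnn1a (green) and Scnn1g (orange) in the summed FPKM of these 3 ENaC subunit genes, 1 bar per library, ligated left of the line and sham right of it. The Scnn1g share was 6.59% to 11.7% in ligated glands and 14.6% to 19.99% in sham glands.

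By likeness of profile, measured as the root mean square difference of log2(FPKM + 1) over the 10 libraries after each gene's own mean was subtracted, the 3 tested genes nearest to Scnn1g were Acsm1 (0.243), Igfals (0.258) and S100a1 (0.264). Acsm1, which encodes an acyl-CoA synthetase, stood at 9.07, 2.77, 3.46, 13.9 and 7.65 FPKM in ligated glands 1 to 5, against 6.17 to 14.7 FPKM in sham glands. Like Scnn1g it was lowest in ligated 2 and 3. S100a1, a calcium-binding protein, had 172 to 525 FPKM in ligated and 386 to 751 FPKM in sham glands. None of the 3 was called (limma adjusted p 0.0591 to 0.127).

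Cftr stood at 6.70, 6.29, 5.14, 14.4 and 9.83 FPKM in ligated glands 1 to 5, against 5.38, 4.92, 5.32, 4.85 and 4.21 FPKM in sham glands 1 to 5. Sham glands were tightly grouped, and 4 of 5 ligated glands lay above all of them, with ligated 3 inside their range. The log2 difference was 0.60 ± 0.23 (SE), which passed the adjusted p (limma, 0.0408) but not the fold threshold, with means of 8.48 ± 3.76 FPKM in ligated and 4.94 ± 0.468 FPKM in sham glands (SD, n = 5 each). That is 0.071 above the median of all genes, and after median-ratio scaling the difference was 0.032 (adjusted p = 0.929), after quantile normalization -0.033. At a common FPKM total it was 1.08 (adjusted p = 0.00229), and 1.15 once the 4 libraries rich in lymph node transcripts were left out (adjusted p = 0.00126), a subset whose ligated glands are 4 and 5, the highest in Cftr. The adjusted p passed by Cftr was lost without ligated 4 (0.40, adjusted p = 0.0708) or ligated 5 (0.53, adjusted p = 0.0880), without sham 2, 3, 4 or 5 (adjusted p 0.0630 to 0.0828), with no filter (adjusted p = 0.0797) and with voom (0.11, adjusted p = 0.770). Cftr overlaps the antisense gene Gm15592 over 129 bases of exon, and whether the counting used strand is not given in the sources used here.

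Slc26a6, an anion exchanger that swaps chloride for bicarbonate and other anions, was low throughout. It stood at 1.47, 1.62, 1.21, 1.42 and 1.19 FPKM in ligated glands 1 to 5, against 2.74, 1.70, 1.31, 4.24 and 2.33 FPKM in sham glands 1 to 5. The ligated glands were close together at the low end, and only sham 3 fell among them. The log2 difference was -0.49 ± 0.20 (SE; limma adjusted p = 0.0554), below both thresholds. Quantile normalization (-1.08, adjusted p = 0.00118) and voom on recovered reads (-1.31, adjusted p = 0.0028) called it lower. Values this near the pseudocount of 1 FPKM understate a fold change.

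Slc9a3, the sodium-proton exchanger of apical membranes, stood at 5.56, 1.46, 1.02, 2.43 and 2.67 FPKM in ligated glands 1 to 5, against 1.21, 2.05, 2.61, 3.33 and 2.73 FPKM in sham glands 1 to 5. The highest and the lowest library were both ligated glands, 1 and 3. The difference was 0.012 ± 0.30 (SE; limma adjusted p = 0.974), with an interval of -0.65 to 0.67.

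**Figure D3:**
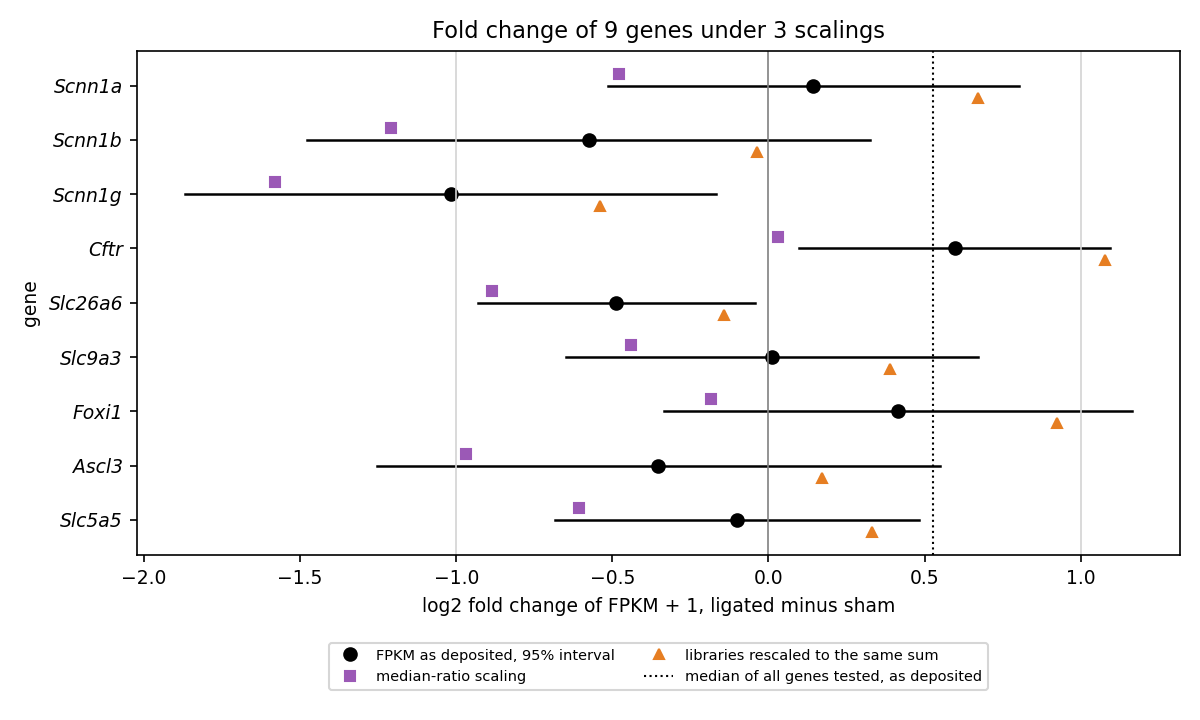
Log2 fold change (ligated minus sham) of 9 genes from FPKM as deposited (black, with the 95% interval from limma), after median-ratio scaling (purple squares) and at a common FPKM total per library (orange triangles); the dotted line is the median of all genes tested (0.53). Scnn1b, Scnn1g and Slc26a6 were negative under all 3, while Foxi1 was at 0.42, -0.18 and 0.93.

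The 2 ionocyte regulators were present in every library and showed no common shift. Foxi1 stood at 7.88, 9.59, 7.12, 28.2 and 15.5 FPKM in ligated glands 1 to 5, against 5.02, 8.70, 10.5, 9.67 and 11.1 FPKM in sham glands 1 to 5. Ligated 4 and 5 lay above all sham glands and the other 3 among them. The log2 difference was 0.42 ± 0.34 (SE; limma adjusted p = 0.297), and -0.18 after median-ratio scaling. Without the 4 libraries with lymph node transcripts, which keeps ligated 4 and 5 only, Foxi1 was higher by 1.00 (adjusted p = 0.00705). In that subset 2166 of all 10969 genes tested were called higher.

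Ascl3 stood at 31.6, 12.6, 5.33, 21.4 and 23.3 FPKM in ligated glands 1 to 5, against 12.7, 27.5, 15.9, 27.4 and 26.6 FPKM in sham glands 1 to 5. Ligated 3 was the lowest library and ligated 1 the highest. The log2 difference was -0.35 ± 0.41 (SE; limma adjusted p = 0.459), and its sign turned at a common FPKM total (0.17) and without ligated 3 (0.0093). Within libraries Ascl3 over Foxi1 was 4.01, 1.31, 0.748, 0.76 and 1.4996 in ligated glands 1 to 5, against 2.53, 3.16, 1.51, 2.83 and 2.40 in sham glands 1 to 5. Ligated 2, 3 and 4 lay below all sham glands in this ratio, and ligated 1 above all of them. Ligated 5 (1.4996) was nearly level with the lowest sham gland, sham 3 (1.51). The ratio was chosen after the values had been seen and was not tested.

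**Figure D4:**
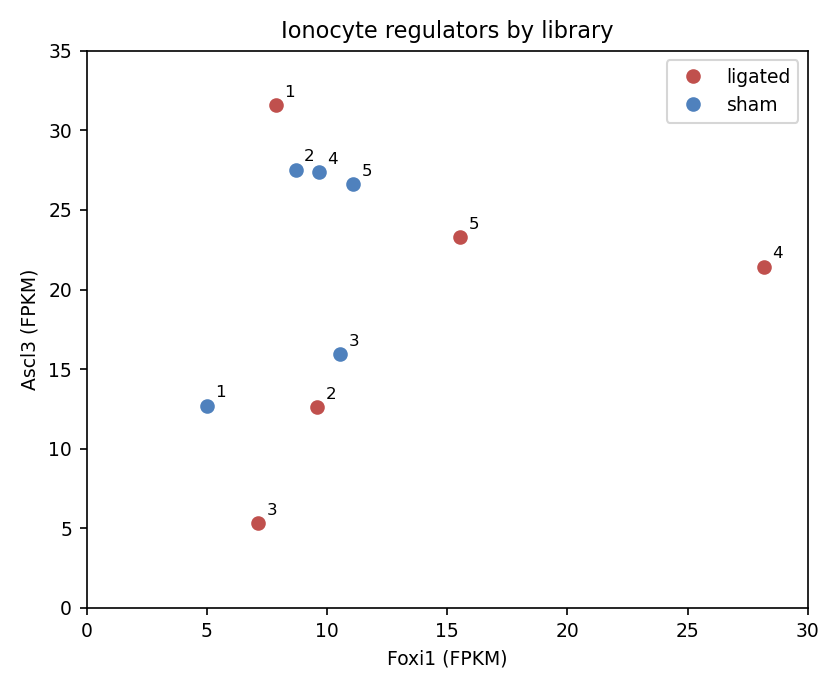
FPKM of Foxi1 (horizontal) against Ascl3 (vertical) in the 5 ligated (red) and 5 sham (blue) libraries, numbered by replicate. Ligated 1 had high Ascl3 at 7.88 FPKM of Foxi1, whereas ligated 4 had 28.2 FPKM of Foxi1 at 21.4 FPKM of Ascl3.

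Kcnj1, which encodes the potassium channel known as ROMK in kidney, had 0 reads in all 5 ligated libraries and in 4 sham libraries, and 2 reads (0.0464 FPKM) in sham 1. A count of 0 allows up to 3 reads, or 0.0628 to 0.0696 FPKM in the ligated libraries and 0.052 to 0.0744 FPKM in those 4 sham libraries, and these limits cover counting error only. They take each recovered unit as an independent read. Among counts below 20, however, 67.0% to 75.2% per library were even numbers, and where a fragment was counted once per mate, the limits would be higher and the 2 reads in sham 1 could be 1 fragment. It failed the filter, and an exact permutation test (two-sided) gave p = 1.

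Slc5a5, the sodium-iodide symporter by which salivary ducts concentrate iodide, stood at 2.77, 2.14, 2.85, 7.53 and 3.30 FPKM in ligated glands 1 to 5, against 2.69, 3.29, 3.20, 5.67 and 4.34 FPKM in sham glands 1 to 5. Ligated 4 was the highest of all. Ligated 1, 3 and 5 lay within the sham range, ligated 5 next to the sham median of 3.29 FPKM, and ligated 2 lay under that range. The log2 difference was -0.10 ± 0.27 (SE; limma adjusted p = 0.747), with an interval of -0.68 to 0.48.

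By mean level the order in ligated glands was Scnn1b, Scnn1a, Ascl3, Foxi1, Cftr, Scnn1g, Slc5a5, Slc9a3, Slc26a6 and Kcnj1. In sham glands it was Scnn1b, Ascl3, Scnn1a, Scnn1g, Foxi1, Cftr, Slc5a5, Slc26a6, Slc9a3 and Kcnj1. Scnn1g was thus in place 6 in ligated and place 4 in sham glands. Several neighbours did not separate: Scnn1a was above Ascl3 in 3 of 5 ligated glands, and Ascl3 above Scnn1a in 3 of 5 sham glands. In sham glands Scnn1b exceeded the next gene in 5 of 5 libraries, and in ligated glands in 4 of 5.

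Genes that work with these transporters and regulators were counted in 7 lists of 80 genes, of which 59 passed the filter and 4 were at 0 in all libraries. Of the 59, 4 were called higher and 2 lower, against 17.1% higher and 1.16% lower of all genes, and their median log2 fold change was 0.14 where that of all genes was 0.53. After median-ratio scaling 0 of the 59 were higher and 13 lower, against 7.09% and 3.97% of all genes. Of 14 tested regulators of ENaC, 1 was higher and 0 lower. Nr3c1, the glucocorticoid receptor, had 9.51 to 14.8 FPKM with a median of 10.3 in ligated glands, and 3.43 to 9.11 FPKM with a median of 4.70 in sham glands, with no overlap (1.05 ± 0.22, SE; limma adjusted p = 0.00326). It was 0.48 after median-ratio scaling (adjusted p = 0.0520), and without ligated 2, ligated 3 or sham 3 it was below the fold threshold (0.94 to 0.98). Nedd4l, the ubiquitin ligase that removes ENaC from the membrane, was higher by 0.87 ± 0.15 (SE, limma adjusted p = 0.00139), short of the fold threshold. It had 2.11 to 4.204 FPKM in ligated and 1.10 to 1.34 FPKM in sham glands, and is named here after its values were seen. Its change was 0.35 above the median of all genes. At the adjusted p alone, 7 of the 14 regulators were higher and 2 lower, against 56.8% and 3.35% of all genes. Among the 59 tested partner genes, the groups did not overlap in 7 in the higher direction and 1 in the lower (Lpo). Of all genes 30.2% were apart in the higher and 1.12% in the lower direction.

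Among 8 tested scaffolds and regulators of Cftr and the exchangers, 1 was higher and 0 lower. Prkar2b, a regulatory subunit of protein kinase A, rose by 1.31 ± 0.32 (SE, limma adjusted p = 0.00663). It had 8.73 to 39.3 FPKM in ligated and 5.24 to 9.24 FPKM in sham glands, overlapping through ligated 2. Among ligated glands it was lowest in ligated 2 and highest in ligated 4. The summed FPKM of the 4 adipocyte markers was also lowest in ligated 2 (52.9) and highest in ligated 4 (201), against 0.0596 to 2.97 in sham glands. The part of fat tissue in the rise of Prkar2b was not tested. Of 11 other duct exchangers and channels, 1 was higher and 0 lower. Slc4a4, a sodium-bicarbonate cotransporter, rose by 1.11 ± 0.24 (SE; adjusted p = 0.00398), with 2.06 to 7.45 FPKM in ligated and 0.699 to 1.37 FPKM in sham glands, and without ligated 4 it was at 0.88. Of 5 genes of the sodium pump, 1 was higher. Atp1b3, a beta subunit, stood at 43.2 to 62.8 FPKM in ligated and 17.1 to 44.0 FPKM in sham glands (1.18 ± 0.23, SE; adjusted p = 0.00251), and the sham gland within the ligated range was sham 1. After median-ratio scaling these 3 genes were at 0.71, 0.70 and 0.55 and none of them was called.

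Of 10 tested ionocyte accessory genes, which encode proton pump subunits, chloride channels and factors of such cells, 0 were called in either direction. At the adjusted p alone 1 of the 10 was higher and 1 lower, and of all 59 partner genes 16 were higher and 9 lower. At that threshold 56.8% of all genes were higher and 3.35% lower. Their most abundant member, the proton pump subunit Atp6v0d2, stood at 16.2, 18.6, 20.2, 40.7 and 42.2 FPKM in ligated glands 1 to 5, against 11.4 to 25.8 FPKM in sham glands (0.59 ± 0.31, SE; limma adjusted p = 0.114). As with Foxi1, ligated 4 and 5 were the highest.

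In the values as deposited, both calls in the lower direction came from duct regulators and iodide handling. Of 6 tested transcription factors of striated ducts, 1 was lower. Tfcp2l1, a grainyhead-like factor of ducts, stood at 94.5, 22.3, 9.42, 31.3 and 44.2 FPKM in ligated glands 1 to 5, against 53.8, 74.2, 73.8, 126.7 and 98.4 FPKM in sham glands 1 to 5. The lowest 4 ligated glands lay below all sham glands and ligated 1 among them, and the fall was 1.37 ± 0.49 (SE; limma adjusted p = 0.0327). It was lost without ligated 2, 3 or 4 or sham 2, 3, 4 or 5 (adjusted p 0.0535 to 0.0692), and was -0.73 without the libraries with parotid transcripts (adjusted p = 0.176).

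Of 5 tested genes of iodide handling beside Slc5a5, 1 was lower and 0 higher. Duox2, an oxidase that supplies hydrogen peroxide, stood at 6.61, 1.01, 0.683, 1.66 and 0.881 FPKM in ligated glands 1 to 5, against 3.24, 3.81, 4.66, 6.72 and 7.51 FPKM in sham glands 1 to 5. The lowest 4 ligated glands lay below all sham glands and ligated 1 among the highest, and the change was -1.18 ± 0.39 (SE; limma adjusted p = 0.0234). The call was lost without ligated 2, 3 or 5 or sham 5 (adjusted p 0.0517 to 0.0538) and without the libraries with parotid transcripts (-0.53, adjusted p = 0.291). Lpo, lactoperoxidase, which uses the peroxide, was at 108 to 188 FPKM in ligated and 192 to 320 FPKM in sham glands with no overlap; its change of -0.85 ± 0.20 (SE; adjusted p = 0.00519) did not reach the fold threshold, and it is named after its values were seen.

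**Figure D5:**
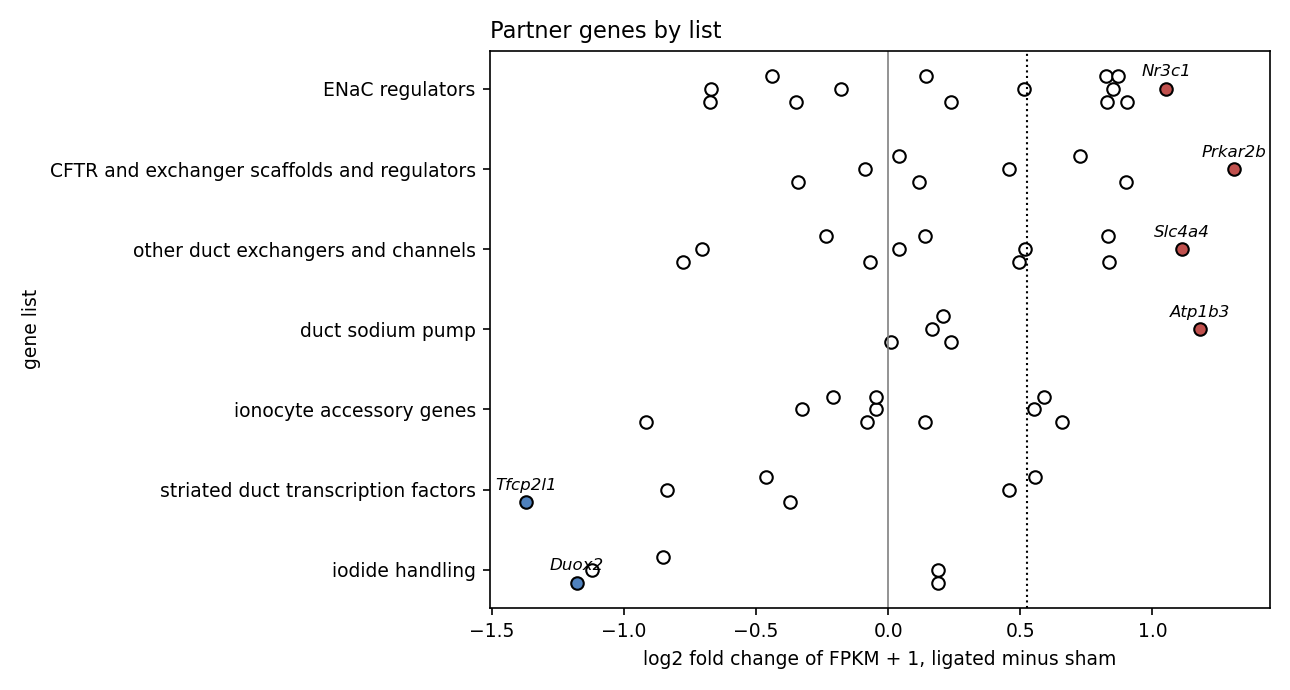
Log2 fold change (ligated minus sham) of the 59 tested partner genes in 7 lists, 1 circle per gene, filled red for genes called higher and blue for genes called lower, with the median of all genes tested (0.53) as a dotted line. The 6 called genes are named, and the ionocyte accessory list holds none of them.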

How the data were processed

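The values are 1 table of gene FPKM that the authors made and deposited, with 1 column per library. Per the submitters' processing notes, reads were placed on mm10 (GRCm38); aligner, counter and gene models: not given in the sources used here. FPKM sums were 337121 to 454370 in ligated and 504092 to 604875 in sham libraries, with no overlap between the groups. The 20 highest genes held 24.9% to 47.5% of the sum in ligated and 54.1% to 76.3% in sham libraries. Low values times GENCODE M21 exon length were whole multiples of 1 step per library (98.3% to 98.4% within 0.01 of a read, below 200 reads), which gave the reads assigned to genes, and whether a unit is a read or a pair is not known. All 10 genes matched the annotation, every column had a sample, with 0 unused, and 0 library pairs held identical values.

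Genes were tested with limma 3.58.1 in R 4.3.3 on log2(FPKM + 1), with 2 groups, no covariate, a mean-variance trend, and two-sided p-values adjusted over all genes tested. The fit was tested on simulated data. The changes planted there were larger than that of Scnn1g and lay in genes of higher mean level. The simulation therefore cannot speak for a call like that of Scnn1g. A gene below the filter had an exact permutation test over the libraries. Replicate numbers come from the titles. The p-values test the difference between groups against the spread between these libraries. Genes named are the 10 members, every called partner gene (or, in a list with none, its most abundant member) and the 3 profiles nearest to a called member; Nedd4l and Lpo fall outside this rule and were chosen after their values were seen. The members and lists were chosen with earlier results of these data known. Leaving out libraries with parotid (Amy1 above 1000 FPKM) or lymph node transcripts (5 marker genes above 50 FPKM in sum) was chosen after seeing the data. Promoter windows are RefSeq's.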

Additional observations from a re-analysis of the deposited data

Results flagged for a closer look

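In a group of 5, a library was singled out by its distance to the nearest other library. That distance, as a share of the group's range, had to exceed Dixon's 95% critical value. The rule was applied to FPKM and not to log2 values. Its rate of about 1 in 20 groups by chance holds for normally distributed values, which FPKM need not be. Of 34 groups, the ligated group of Kcnj1 was at 0 throughout and could not be examined. Scnn1a in ligated 4 was 39.1 FPKM, where the other ligated glands had 12.1 to 19.3 FPKM. In the same library Slc5a5 was 7.53 FPKM (others 2.14 to 3.30 FPKM) and Slc4a4 was 7.45 FPKM (others 2.06 to 3.62 FPKM). Duox2 in ligated 1 was 6.61 FPKM, where the other ligated glands had 0.683 to 1.66 FPKM. In sham 1, Nr3c1 was 9.11 FPKM (others 3.43 to 4.82 FPKM) and Atp1b3 was 44.0 FPKM (others 17.1 to 21.3 FPKM). Kcnj1 in sham 1 was 0.0464 FPKM from 2 reads, with the other sham glands at 0. A single value above 0 in a group always meets this rule.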

How the results depend on the processing

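All genes gave 2031 higher and 138 lower; median-ratio scaling gave 840 and 471, quantile normalization 689 and 509, voom on recovered reads 1259 and 538, and libraries rescaled to the same sum 5464 and 65. With a filter at 5 FPKM 1166 were higher, and without the parotid libraries 84 were lower. Higher calls were 93.6% of all calls as deposited, 64.1% after median-ratio scaling, 57.5% after quantile normalization, 70.1% with voom and 98.8% with equal sums. Median fold changes of all genes were 0.53, 0.0089, -0.079, 0.090 and 0.97 in the same order. Of the 10 genes, 1 was higher with equal sums (Cftr) and 2 without the lymph node libraries (Cftr and Foxi1). Without the lymph node libraries 2166 of all 10969 genes tested were higher and 176 lower. The number lower was 2 with quantile normalization and with voom (Scnn1g and Slc26a6), and 0 with no filter, with equal sums and without either set of 4 libraries; leaving out 1 library gave 0 to 1 lower. Partner genes called higher were 0 after median-ratio scaling and quantile normalization, 1 with voom, 17 with equal sums and 10 without the lymph node libraries. Partner genes called lower were 13, 12, 12, 0 and 4 in these settings. Of them 59 were tested under each scaling and 60 without the lymph node libraries. Among all genes 7.09%, 5.81%, 10.8% and 46.1% were higher with median-ratio scaling, quantile normalization, voom and equal sums. In the same order 3.97%, 4.29%, 4.59% and 0.548% were lower. The number of partner genes lower was 0 with no filter, 1 with a filter at 5 FPKM and 1 without the parotid libraries. It was 0 to 5 when 1 library was left out. The cause of these shifts was not tested.

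Fold changes turned sign in 6 genes, none of them called in the deposited values, though Cftr and Foxi1 were called in the settings named above. Scnn1a was -0.48 after median-ratio scaling, -0.41 after quantile normalization and -0.42 with voom, and -0.10 to 0.30 when 1 library was left out. Cftr was -0.033 after quantile normalization. Slc9a3 was -0.019 with a pseudocount of 0.1, -0.44 after median-ratio scaling, -0.59 after quantile normalization, -0.58 with voom and -0.041 without the lymph node libraries, and -0.23 to 0.19 when 1 library was left out. Foxi1 was -0.18, -0.17 and -0.092 under median-ratio scaling, quantile normalization and voom. Ascl3 was 0.17 with equal sums and 0.12 without the parotid libraries, and -0.58 to 0.0093 when 1 library was left out. Slc5a5 was 0.33 with equal sums, 0.17 without the parotid and 0.27 without the lymph node libraries, and -0.34 to 0.023 when 1 library was left out. Kcnj1 had a value in 17 of the 20 alternatives. Scnn1b, Scnn1g and Slc26a6 kept a negative sign in all 20 alternatives.

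Same-numbered ligated and sham libraries were not paired by the data: the correlation of their deviations from the group means ran from -0.38 to 0.58 over 5 pairs, and 2 of 5 ligated libraries were closest to the sham library of their own number. With the replicate block, 2082 genes were higher and 121 lower, and Scnn1g (adjusted p = 0.0447) was again the 1 lower gene of the 10, while Cftr had an adjusted p of 0.0646. Among the 9 genes tested, the standard error ran from 0.20 for Slc26a6 to 0.41 for Scnn1b and Ascl3.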
